A study of Mus musculus with 106 samples.

Results

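The proteasome is the large protease that breaks down proteins tagged with ubiquitin, and its subunits, caps and helpers are encoded by genes whose symbols start with Psma to Psmg. The members described here are the protein-coding genes whose symbol is Psm, a letter from a to g, and a digit. They number 50 of the 21897 protein-coding genes in the table. By role they are 7 alpha and 7 standard beta subunits of the core, 3 interferon-inducible beta subunits, 2 tissue-specific core subunits, 6 ATPases of the base and 11 non-ATPase subunits of the cap. The rest are 3 chaperones of the base, 5 activator genes, the inhibitor Psmf1, 4 chaperones of the core, and Psmc3ip, which shares the letters but is no subunit.

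The core is a barrel of stacked rings whose beta subunits cut proteins, and the cap unfolds a tagged protein and feeds it in. Interferon swaps the cutting subunits for inducible counterparts, and other activators can dock on the barrel in place of the cap. Mutant huntingtin, the protein behind Huntington disease (HD), gathers in inclusions that also hold ubiquitin, so proteasome genes are of interest in this disease.

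The study read RNA from brain cell types of HD mice by RiboTag, in which Cre switches on an HA-tagged ribosomal protein (Rpl22) and tagged ribosomes with their RNA are pulled down from homogenate. HD mice carried HdhQ7/Q200, an expanded CAG repeat knocked into the mouse Htt gene, and controls were HdhQ7/Q7 littermates. Mice of the Gad2, PV and vGlut2 lines also carried 1 copy of RiboTag and 1 of a Cre on a 129S4 background and were killed at about 9 months (39 to 45 weeks). The methods do not describe the SST mice, which the labels give as HD and control littermates. The Cre stood at Gad2 (Gad2 line), Pvalb (PV line), Sst (SST line) or Slc17a6 (vGlut2 line), so each pulldown holds RNA of cells that had expressed that gene by the time of sampling.

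The 106 libraries came from 45 mice, as 67 pulldowns (IP) and 39 total homogenate samples (input), 52 HD and 54 control. Cerebral IPs of control and HD mice numbered 6 and 6 for Gad2, 6 and 5 for PV, 5 and 4 for SST, and 6 and 6 for vGlut2. The cerebellum gave 6 and 6 IPs for Gad2 and 5 and 6 for vGlut2. Cerebral input numbered 3 and 3 in the Gad2, PV and vGlut2 lines and 4 and 3 in the SST line. Cerebellar input numbered 3 and 3 in the Gad2 line and 4 and 4 in the vGlut2 line. In the SST line, all HD mice and 2 controls bear codes of 1 series and the other controls bear another, so comparisons within 1 series rest on 2 controls. Total counts per library ran from 21.91M to 107.75M with a median of 35.86M (M is 1000000 counts).

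The marker genes followed the labels for the most part. Against control input of the same region, on the log2 scale, Gad1, which makes GABA, was higher in cerebral Gad2 IPs (2.25) and cerebellar Gad2 IPs (1.84). Pvalb was 2.13 higher in PV IPs, Sst 2.61 higher in SST IPs and Slc17a6 1.06 higher in cerebral vGlut2 IPs. Slc17a6 was also higher in PV IPs (1.26) and SST IPs (1.17), so these IPs held RNA of that marker too. In cerebellar vGlut2 IPs Slc17a6 stood at 1.25 with an edgeR adjusted p of 0.0916, while Gabra6, a granule cell gene, was 1.27 higher. Csf1r, a microglial receptor, was lower in all 6 kinds of IP, from -0.83 in cerebellar Gad2 to -4.61 in cerebral vGlut2. In this kind of data fewer cells of a type and less RNA per cell cannot be told apart. Some libraries stood apart, with protein-coding genes at 77.43% of counts in Control Gad2 Cerebellum IP 5 and 81.85% in HD vGlut2 Cerebrum IP re1 (numbers and re as in the labels). The paper states that some libraries failed at first and were sequenced again with longer reads. All libraries labelled re are HD, in cerebellar Gad2, PV and cerebral vGlut2 IPs. The labels do not say whether re marks a second run.

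Levels are in CPM, counts per 1000000 protein-coding counts after TMM scaling of each library, and comparisons between genes use CPM per kb of mRNA. Among the core genes in control cerebral Gad2 IPs, the median level per kb was highest for Psmb6 at 232 and Psmb7 at 213 CPM per kb. These encode the caspase-like and trypsin-like cutting subunits. Psmc5, an ATPase of the base ring, stood near them at 189 CPM per kb and was the highest member in PV IPs (220 CPM per kb) and SST IPs (200 CPM per kb). In cerebellar vGlut2 IPs the leading genes were again Psmb6 (238 CPM per kb) and Psmc5 (234 CPM per kb). Sums over each complex show the same genes as a whole. In control Gad2 IPs of the cerebrum, the core sum ran from 1690 to 2129 CPM per kb (median 1887), the ATPase sum from 616.9 to 776.8 (median 725.4) and the non-ATPase cap sum from 819.5 to 968.2 (median 920.5). SST IPs had a core sum of 1337 to 1624 CPM per kb (median 1427), under all 6 Gad2 libraries. mRNA length moved with this. Against input, all mRNAs under 1.5 kb had a median log2 difference of -0.60 in SST and -0.02 in cerebral Gad2 IPs. The part of length was not tested. As a share of protein-coding counts, all members together took a median of 0.552% in control cerebral Gad2 IPs and 0.459% in control SST IPs.

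**Figure D1:**
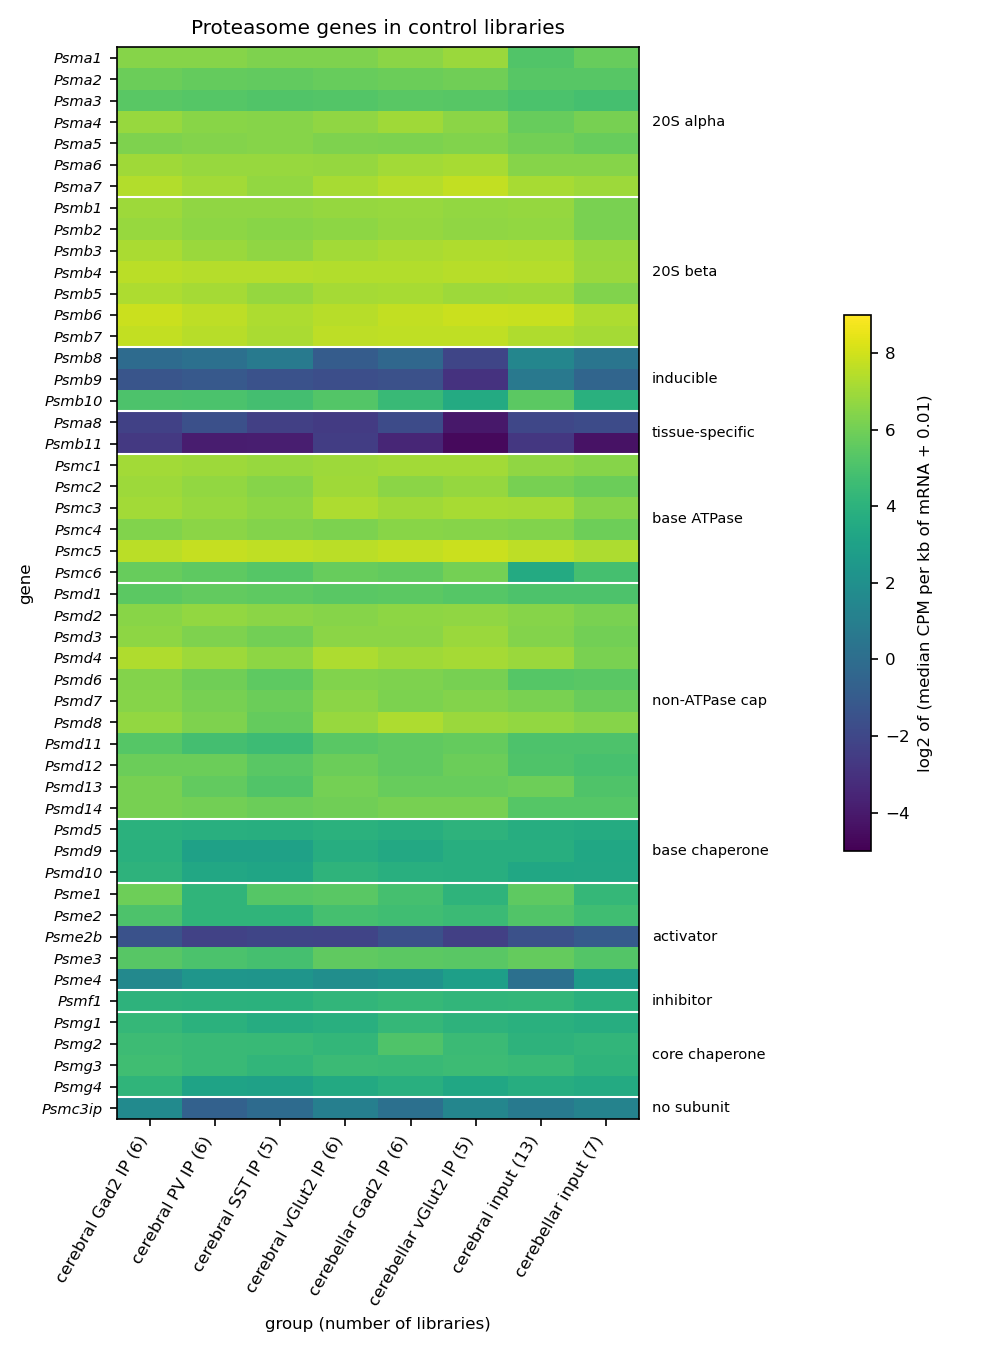
Each cell is the median level of 1 proteasome gene over the control libraries of a group, as log2 of CPM per kb of mRNA plus 0.01, with genes in rows by role and groups in columns with their number of libraries. Core and base genes are bright in every column (Psmb6 at 232 CPM per kb in cerebral Gad2 IPs), while Psmb8, Psmb9, Psma8, Psmb11 and Psme2b are dark.

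The inducible counterparts of the cutting subunits split by level. Psmb10, which replaces Psmb7, was well expressed, with medians per kb of 34.5, 32.5, 28.2 and 38.3 CPM in control cerebral Gad2, PV, SST and vGlut2 IPs. The cerebellum had less, 22.8 CPM per kb in Gad2 and 12.0 in vGlut2 IPs. Psmb8 and Psmb9, which replace Psmb5 and Psmb6, were near the floor, at 0.935 and 0.392 CPM per kb in cerebral Gad2 IPs and 0.227 and 0.119 in cerebellar vGlut2 IPs. Taken per kb, the 3 inducible genes made up 2.12% of all 6 cutting-subunit transcripts in cerebellar vGlut2 IPs (1.56 to 2.69%) and 7.06% in cerebral vGlut2 IPs (6.27 to 8.09%). These groups did not overlap. Lengths from the union of exons gave higher shares, 3.22% and 9.42%, in the same order.

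The activator genes had levels that varied between cell types. Psme1 and Psme2 encode the subunits of the interferon-inducible activator ring, Psme3 a related nuclear ring, and Psme4 a large activator that docks alone. Psme1 had medians of 61.0 CPM per kb in control cerebral Gad2 IPs, 17.8 in PV, 39.3 in SST and 41.9 in vGlut2 IPs. In the cerebellum they were 29.7 CPM per kb in Gad2 and 17.0 in vGlut2 IPs. Psme2 ran from 17.6 CPM per kb in PV to 33.5 in cerebral Gad2 IPs. Psme4 went another way, with 3.02 CPM per kb in cerebral Gad2 IPs, 5.10 in PV and 7.42 in cerebellar vGlut2 IPs. Psme3 stayed between 28.9 CPM per kb in SST and 47.6 in cerebral vGlut2 IPs.

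Tissue-specific members were barely present. Psma8, a testis subunit, Psmb11, a thymus subunit, and Psme2b, a near copy of Psme2, all had medians under 0.4 CPM per kb in the control IPs. These 3 genes, and Psmb9, fell under a mean count of 10 in some comparisons and were not tested there. For HD against control they were Psme2b in SST IPs, Psma8 and Psme2b in cerebral vGlut2 IPs, all 4 in cerebellar vGlut2 IPs and Psmb11 in cerebellar input. For IP against input they were Psme2b in PV and SST, Psmb11 in both cerebellar IPs and Psma8 in cerebellar vGlut2 IPs, and between cell types Psme2b. Spread between libraries of a group, as the SD of log2 of CPM plus 0.5, had a median of 0.229 over members against 0.314 over all genes. Members and all genes were not matched for level, and the added 0.5 lowers the SD of genes near the floor. In all, 12 of 50 members lay over the SD of all genes, with Psme4 (0.56), the ATPase Psmc6 (0.48), Psmb9 (0.44) and Psmb8 (0.43) the highest, and Psmd5, a base chaperone, had the lowest member SD (0.11).

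To see which members the tagged cells held above whole tissue, control IPs were compared with all control input of the same region by edgeR. In cerebral Gad2 IPs 24 of 50 members were higher and 4 lower, against 29.6% and 32.5% of 14795 genes, with a median log2 difference of 0.22. In PV IPs 18 of 49 were higher and 14 lower (33.5% and 35.6% of genes), with a median of 0.01. In SST IPs the counts were 13 higher and 16 lower of 49 (31.3% and 30.3% of genes), with a median of -0.16. Cerebral vGlut2 IPs had 18 higher and 2 lower of 50 (30.2% and 33.0% of genes), with a median of 0.15. Cerebellar Gad2 IPs had 36 of 49 members higher and 2 lower (24.8% and 31.8% of genes; median 0.44), and cerebellar vGlut2 IPs 33 of 48 higher and 4 lower (27.0% and 30.6% of genes; median 0.42). The 2 regions were not tested against each other in this respect. With input of the same line alone, cerebral Gad2 IPs had 14 higher and 2 lower (4600 of 14672 genes called), SST IPs 7 and 11 (7499 of 14789) and cerebellar Gad2 IPs 22 and 1 (6169 of 14147). Scaled by library size only, cerebellar vGlut2 IPs had 22 higher and 6 lower, with the median of all genes at -0.086 instead of 0.023, and cerebellar Gad2 IPs 29 and 2, with that median at -0.132 instead of -0.071. The share of all genes called under that scaling is not given here, so these counts cannot be set against it.

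By role, alpha subunits were often higher, with 6, 6, 6 and 5 of 7 in cerebral Gad2, PV, SST and vGlut2 IPs and 7 of 7 in both cerebellar IPs. In SST IPs 1 alpha subunit was lower. Of 7 standard beta subunits 1, 1, 0 and 1 were higher in the same cerebral IPs, with 1 lower in PV and 2 in SST. Both cerebellar IPs had 6 of 7 higher. In the cerebellum 6 of 6 ATPases of the base were higher in both IPs too, and of 11 non-ATPase cap subunits 11 were higher in Gad2 and 9 in vGlut2 IPs. The 3 inducible subunits were lower in cerebral Gad2, PV and SST and in cerebellar vGlut2 IPs. In cerebral vGlut2 IPs 2 of them were, with Psmb10 at -0.21 ± 0.16, and in cerebellar Gad2 IPs Psmb9 was lower but Psmb10 higher (0.48 ± 0.14), a call that ended with input of the same line alone (adjusted p 0.113), with HD libraries added and genotype as a term (0.0822), and with only mice that gave both libraries and mouse as a block (0.63). In cerebellar vGlut2 IPs Psmb10 had 0.0501 with input of the same line alone. Psmb9 differed by -1.84 ± 0.18 (log2 ± SE) in cerebral Gad2, -1.67 ± 0.24 in PV, -1.28 ± 0.44 in SST and -1.75 ± 0.33 in cerebral vGlut2 IPs, and by -1.30 ± 0.31 in Gad2 and -2.47 ± 0.34 in vGlut2 IPs of the cerebellum. Psmb8 differed by -1.49 ± 0.23 in cerebral Gad2, -2.47 ± 0.21 in cerebral vGlut2 and -2.56 ± 0.27 in cerebellar vGlut2 IPs. Of the interferon and antigen presentation genes, 8 of 8 were lower in cerebral Gad2 and 7 of 8 in cerebral vGlut2 IPs. In PV IPs 3 of 9 were higher and 5 lower, in SST 2 and 5 of 9, in cerebellar Gad2 2 and 5 of 8, and in cerebellar vGlut2 1 and 5 of 8. Of 7 microglial markers all were lower in each kind of IP except cerebellar Gad2, where 5 were. All 6 astrocyte, 6 oligodendrocyte and 4 endothelial markers were lower in Gad2 and vGlut2 IPs of both regions, with medians from -3.76 to -2.14. In PV IPs 5, 4 and 4 of them were lower (medians -1.78, -1.48 and -1.33), and in SST IPs 5, 4 and 3 (-1.63, -1.10 and -0.92) with 1 oligodendrocyte marker higher. Whether RNA of other cells in input plays a part was not tested. Psmc6 was among the most enriched members, at 1.82 ± 0.31 in cerebral Gad2, 1.70 ± 0.31 in PV, 1.44 ± 0.33 in SST, 1.83 ± 0.31 in cerebral vGlut2 and 1.15 ± 0.18 in cerebellar vGlut2 IPs. Psma1 stood at 1.25 ± 0.13 in cerebral Gad2, 1.26 ± 0.13 in PV, 1.25 ± 0.14 in SST, 1.09 ± 0.13 in cerebral vGlut2 and 0.98 ± 0.13 in cerebellar vGlut2 IPs. Psma4 was 1.09 ± 0.10 higher in cerebral and 0.88 ± 0.10 higher in cerebellar Gad2 IPs. In the latter the cap subunit Psmd6 (0.93 ± 0.10) and the core chaperone Psmg2 (0.83 ± 0.11) were higher too and Psmc3ip was lower (-1.11 ± 0.28). Psme1 was lower in PV IPs (-1.32 ± 0.13) and Psmd8, of the cap, in SST IPs (-0.99 ± 0.13). Psme4 was 1.90 ± 0.35 higher in PV, 1.92 ± 0.38 in SST and 1.32 ± 0.36 in cerebral vGlut2 IPs. mRNA length moved with these values in PV and SST IPs. Over all genes in PV IPs the median was -0.52 for mRNAs under 1.5 kb and 0.54 over 5 kb, and in SST IPs -0.60 and 0.66. Psme4 is the 1 member over 5 kb, and 25 of 49 members tested in these IPs are under 1.5 kb, with medians of 0.004 in PV and -0.24 in SST IPs. The part of length was not tested. Some calls ended under another setting. Psmb9 had an adjusted p of 0.157 in SST and 0.062 in cerebellar Gad2 IPs with input of the same line alone, and 0.059 in cerebral vGlut2 IPs with only mice that gave both libraries and mouse as a block, while Psme2b in cerebellar vGlut2 IPs (-1.71 ± 0.47) had 0.103 in that setting.

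Between cell types, tested in 1 edgeR fit of all control IPs over 14571 genes, Psme1 was the gene that differed most often. Control PV IPs held 18.2, 19.7 and 22.6 CPM (lowest, median, highest), SST IPs 26.1, 39.7, 43.7, 44.99 and 49.7 CPM, and cerebral Gad2 IPs 55.9, 67.9 and 76.6 CPM. These 3 groups did not overlap, and PV IPs differed from SST IPs by -1.04 ± 0.17 and from cerebral Gad2 IPs by -1.72 ± 0.17. PV against SST called 5 of 49 members higher and 1 lower, against 8.12% and 6.95% of genes, with the cap subunits Psmd8 (0.60 ± 0.11), Psmd13 (0.58), Psmd12 (0.46) and Psmd6 (0.44) among those higher. With only these groups fitted and replicate number as a block 2 members were called (824 of 14596 genes), and the calls of Psmd13, Psmd12 and Psmd6 ended. Markers of other cells lay mostly below 0 in this contrast, 7 of 7 of microglia (median -0.63, 0 called by edgeR, 2 at an unadjusted p under 0.05, 1 called by DESeq2), 6 of 6 of oligodendrocytes (-0.62, 1 called), 4 of 4 of endothelial cells (-0.46) and 5 of 6 of astrocytes (-0.42). Their part was not tested. PV against Gad2 in the cerebrum called 2 higher and 21 lower (28.6% and 25.2% of genes). Psmc3ip (-2.24 ± 0.31), the core chaperone Psmg4 (-1.05 ± 0.21), the base chaperone Psmd9 (-0.89 ± 0.11) and Psme2 (-0.89 ± 0.16) were lower and Psme4 was higher (0.86 ± 0.18). Over all genes in this contrast the median ran with mRNA length, from -0.45 under 1.5 kb through -0.06 and 0.17 to 0.46 over 5 kb, and the 25 members under 1.5 kb had a median of -0.29. Markers of other cells moved too, with 6 of 6 oligodendrocyte, 5 of 6 astrocyte and 4 of 4 endothelial genes higher and 4 of 7 microglial genes lower. The part of length and of these cells was not tested.

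vGlut2 against Gad2 IPs of the cerebrum called 1 higher and 2 lower, against 15.6% and 14.9% of genes. They were Psmc3 (0.36 ± 0.12) and the core chaperones Psmg1 (-0.38 ± 0.15) and Psmg2 (-0.31 ± 0.11). The extremes were Psmb11 (0.49 ± 0.47) and Psmb8 (-0.92 ± 0.41), which had an adjusted p of 0.0862 by edgeR, 0.0364 by DESeq2 and 0.0255 with only these groups fitted. The count moved with single libraries. It was 1 without Control Gad2 Cerebrum IP 1, 4, 5 or 6 or without Control vGlut2 Cerebrum IP 2, 3 or 4, with 3990 to 4211 genes called. Without Control Gad2 Cerebrum IP 2 it was 4 (4290 genes), and without Control vGlut2 Cerebrum IP 1 it was 9 (4749 genes). DESeq2 called 1 higher and 5 lower (4724 of 14571 genes called), and scaling by library size only 0 higher and 7 lower (4573 genes). Microglial markers were lower in 7 of 7 (median -2.50), those of oligodendrocytes in 4 of 6 (-0.92) and of endothelial cells in 2 of 4 (-0.66). Of 6 astrocyte markers 2 were lower and 1 higher (-0.62), and of 8 interferon and antigen presentation genes 2 were higher and 0 lower (0.06). In the cerebellum the same contrast called 5 higher and 9 lower (29.5% and 28.5% of genes), with Psmb10 (-1.03 ± 0.19) and Psme1 (-0.85 ± 0.17) lower and Psmc3ip higher (1.28 ± 0.31). The lowest was the testis subunit Psma8 (-1.84 ± 0.63). Psmb8 was also lower (-1.53 ± 0.46), a call that ended with only these groups fitted (adjusted p 0.0551), where 9 members were called (7797 of 13879 genes). In the same contrast 7 of 7 microglial markers were lower (median -2.68), as were 5 of 6 astrocyte markers, 3 of 6 of oligodendrocytes and 2 of 4 of endothelial cells. Of 8 interferon and antigen presentation genes 6 were lower and 2 higher. The part of these cells was tested in neither region.

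Cerebellar against cerebral Gad2 IPs called 5 higher and 8 lower (27.1% and 28.2% of genes), with Psmc3ip at -1.58 ± 0.30, Psme1 at -1.002 ± 0.163, Psme4 at 0.70 ± 0.18, Psmb10 at -0.58 ± 0.18 and Psmd8 at 0.58 ± 0.11. Of 8 interferon and antigen presentation genes 4 were higher and 0 lower there (median 0.28). Cerebellar against cerebral vGlut2 IPs called 3 higher and 10 lower (31.0% and 32.2% of genes). There Psmb10 was -1.86 ± 0.20, Psme1 -1.50 ± 0.18, Psmb11 -2.77 ± 0.57 and Psme4 1.07 ± 0.19. Psmb8 (-1.11 ± 0.46) and Psmb9 (-1.61 ± 0.62) were lower too, but these calls rest on single libraries. The call of Psmb8 ended without Control vGlut2 Cerebellum IP 1, 3, 4 or 5 or Cerebrum IP 1, and that of Psmb9 without Cerebellum IP 2 or 3 or Cerebrum IP 1. Control vGlut2 Cerebrum IP 1 also turned the median, from -0.08 with it to 0.08 without it. In vGlut2 IPs 3 of 8 interferon and antigen presentation genes were higher and 3 lower. The regions of a line were sampled from the same mice, 6 of 6 control pairs for Gad2 and 5 of 5 for vGlut2, which the fit of all control IPs does not use. With only the groups compared and mouse as a block, 14 members were called in Gad2 (7478 of 14368 genes) and 11 in vGlut2 IPs (9016 of 14277). Microglial markers lay below 0 in both contrasts, with 5 of 7 called lower in Gad2 (median -0.80) and 3 of 7 in vGlut2 IPs (median -0.82). Of 6 astrocyte and 4 endothelial markers, 4 and 2 were higher in Gad2 and 3 and 3 in vGlut2 IPs, and of 6 oligodendrocyte markers 1 and 2. Over all genes the median rose with mRNA length, from -0.18 under 1.5 kb to 0.23 over 5 kb in Gad2 and from -0.16 to 0.23 in vGlut2 IPs. The part of these was not tested.

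The main question of the study was what the HD allele changes in each cell type. In cerebral Gad2 IPs edgeR called 0 of 50 members, against 0.0279% of 14342 genes. At an unadjusted p under 0.05 there were 3 members (9.20% of genes), and DESeq2 called 0 (0.523%). Psmb8 had the highest difference, 0.70 ± 0.29 on the log2 scale, with control libraries at 1.02, 1.52 and 2.70 CPM (lowest, median, highest) and HD libraries at 1.32, 2.73 and 3.74. The ranges overlapped. Microglial markers lay above 0 alongside, 7 of 7 with a median of 0.58, of which edgeR called 0, 3 had an unadjusted p under 0.05 and DESeq2 called 0. Their summed levels were 59.01, 88.8 and 146.5 CPM in control and 66.2, 146 and 285 CPM in HD. Csf1r was the most abundant of them. Markers of other cells lay mostly below 0, 5 of 6 of astrocytes (median -0.13), 5 of 6 of oligodendrocytes (-0.22) and 3 of 4 of endothelial cells (-0.17). Of these, 0, 1 and 0 had an unadjusted p under 0.05, and edgeR and DESeq2 called 0. The part of microglia and of these other cells was not tested. Psma8 had the lowest difference (-0.67 ± 0.39). The median over members was 0.10, with 38 of 50 above 0, against a median of -0.005 over all genes. All mRNAs under 1.5 kb had a median of 0.06 and those over 5 kb -0.15.

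In PV IPs edgeR called 0 of 50 members (0.0408% of 14713 genes), with 2 at an unadjusted p under 0.05 (4.21%) and 0 by DESeq2 (0.285%). Psme1 stood at 0.41 ± 0.11 there with an adjusted p of 0.623 by edgeR. Its control libraries held 18.2, 19.7 and 22.6 CPM (lowest, median, highest) and its 5 HD libraries 21.3, 24.5, 26.6, 26.9 and 33.7, so 1 HD library lay inside the control range. The extremes were Psme2b (0.95 ± 0.44) and Psmb9 (-0.26 ± 0.35), and the median of 0.01 turned to -0.002 when scaled by library size only. Markers below 0 were 6 of 6 of astrocytes (median -0.26), 6 of 6 of oligodendrocytes (-0.31), 6 of 7 of microglia (-0.17) and 3 of 4 of endothelial cells (-0.06). At an unadjusted p under 0.05 there were 3, 3, 0 and 0. edgeR called 0 of them and DESeq2 1, of oligodendrocytes, and their part was not tested. SST IPs had 0 of 49 called (0% of 14689 genes), 0 at an unadjusted p under 0.05 (1.47%) and 0 by DESeq2 (0.0136%). The median was 0.09 (0.072 with mice of 1 code series only), with Psmb8 (0.48 ± 0.30) and Psma8 (-0.81 ± 0.63) as extremes, and all mRNAs under 1.5 kb had a median of 0.12 and those over 5 kb -0.08. Markers above 0 were 5 of 7 of microglia (median 0.25), 4 of 4 of endothelial cells (0.26), 4 of 6 of astrocytes (0.05) and 2 of 6 of oligodendrocytes (-0.04). edgeR and DESeq2 called 0 of them, and their part was not tested. HD SST Cerebrum IP 4 lay apart from the other 3 HD libraries, with a score of long minus short mRNAs of -0.172 (others 0.792 to 0.932), Psme2 at 37.5 CPM (17.5 to 20.3) and Psmb9 at 1.52 CPM (0.62 to 0.75). Without it the median over members was 0.0359, and Psme2 went from 0.162 to -0.109.

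Cerebral vGlut2 IPs leaned upward without a call. edgeR called 0 of 48 members (0% of 14354 genes), with 8 at an unadjusted p under 0.05 (7.61%) and 0 by DESeq2 (0.174%). The median difference was 0.19 and 40 members lay above 0, against a median of -0.01 over all genes. mRNA length moved with this lean. All mRNAs under 1.5 kb had a median of 0.14 (72.9% above 0) and those over 5 kb -0.14, and the 25 members under 1.5 kb had a median of 0.24. Markers of other cells lay more often below 0, 5 of 6 of astrocytes (median -0.36), 5 of 7 of microglia (-0.29), 3 of 4 of endothelial cells (-0.13) and 4 of 6 of oligodendrocytes (-0.15), with 0 called by edgeR or DESeq2 and 0, 0, 0 and 2 at an unadjusted p under 0.05. The part of length and of these cells was not tested. Psmb6 (0.36 ± 0.14), Psmb7 (0.27 ± 0.11) and Psme1 (0.32 ± 0.15) were examples, and the extremes were Psmb9 (0.62 ± 0.70) and Psmb11 (-0.51 ± 0.68). Control vGlut2 Cerebrum IP 1 lay above the other 5 control libraries in Psme1 (76.4 CPM, others 41.5 to 50.4), Psme2 (46.9, others 23.9 to 29.4) and Psmb10 (72.8, others 41.4 to 52.0). Without it the median was 0.2648, with 24 members at an unadjusted p under 0.05 and 0 called (0 of 14372 genes). The value of Psmb9 rests on HD vGlut2 Cerebrum IP re1, at 2.89 CPM where the other 5 HD libraries held 0.398 to 0.62, and was -0.327 without that library. Cerebellar Gad2 IPs had 0 of 50 called (0.0142% of 14098 genes), 0 at an unadjusted p under 0.05 (2.41%) and 0 by DESeq2 (0.156%). Their median was 0.01, with Psmb11 (0.60 ± 0.55) and Psmg1 (-0.31 ± 0.15) as extremes. Markers below 0 were 7 of 7 of microglia (median -0.38), 6 of 6 of oligodendrocytes (-0.17), 5 of 6 of astrocytes (-0.13) and 1 of 4 of endothelial cells (0.09). edgeR and DESeq2 called 0 of these markers, 0 had an unadjusted p under 0.05, and their part was not tested.

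**Figure D2:**
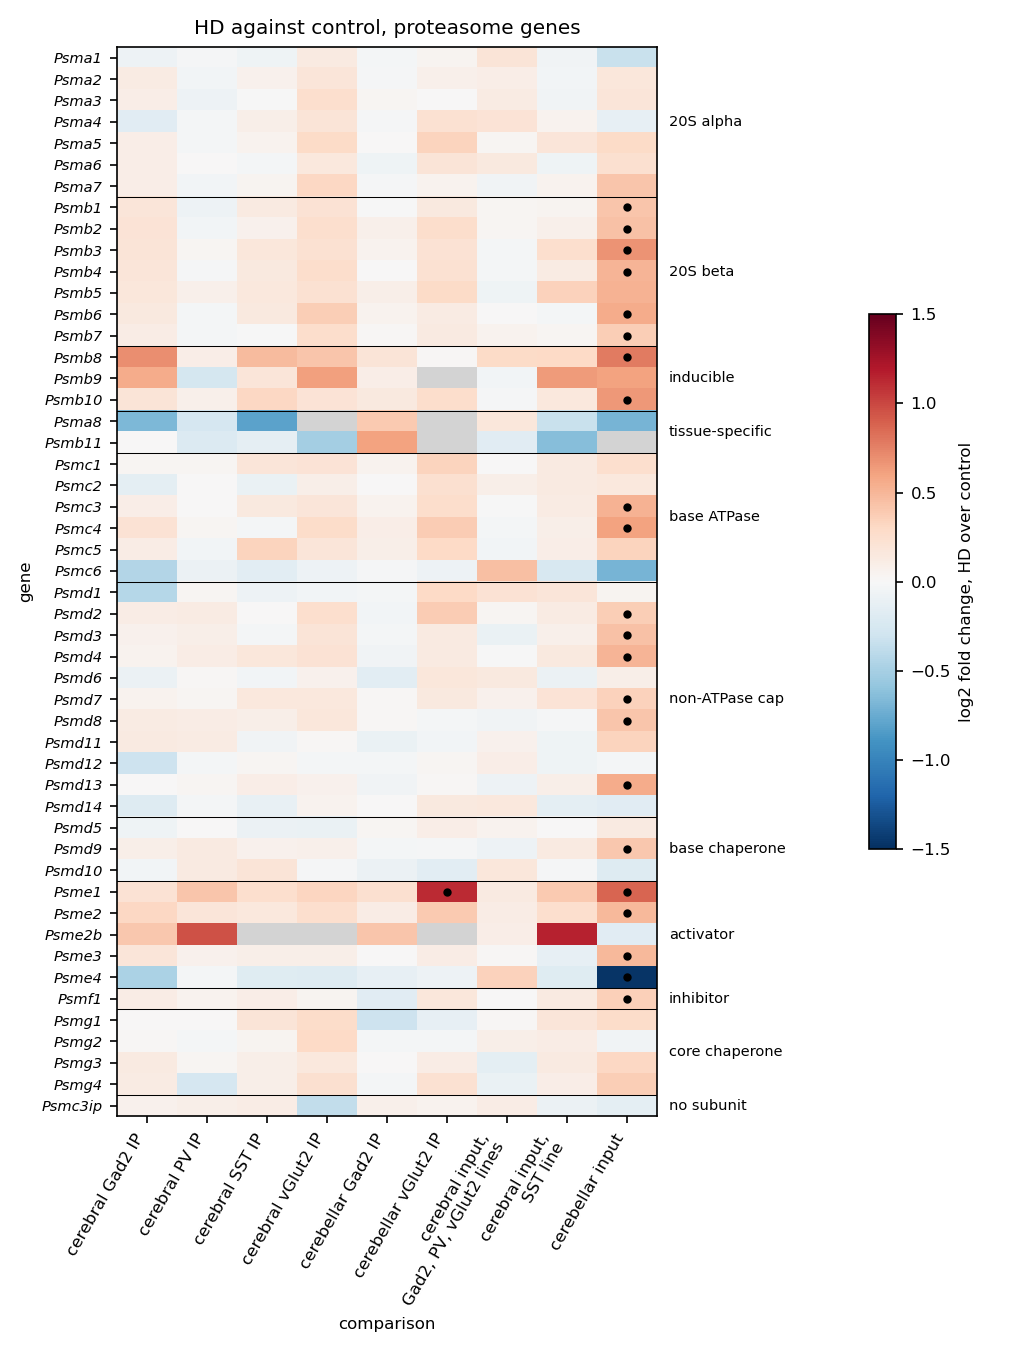
Each cell is the edgeR log2 fold change of HD over control for 1 proteasome gene, with genes in rows by role and comparisons in columns, where dots mark calls at an adjusted p of 0.05 or less and grey marks genes not tested. IP columns hold 1 dot, Psme1 in cerebellar vGlut2 IPs (1.12), and cerebellar input holds 22, of which Psme4 is the lower one.

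Psme1 was the 1 member called in an IP, in cerebellar vGlut2 cells. The 5 control libraries held 14.1, 14.6, 18.9, 20.3 and 26.8 CPM and the 6 HD libraries a lowest of 29.4, a median of 40.8 and a highest of 50.8. All 6 HD libraries lay above every control library. The log2 fold change was 1.12 ± 0.20 with an edgeR adjusted p of 0.00926, and 9.26e-06 by DESeq2. The lowest member was the base chaperone Psmd10 (-0.16 ± 0.12). Psme1 was 1 of 46 members called higher against 0.964% of 13487 genes (1.13% lower), with 8 members at an unadjusted p under 0.05 (15.4%) and 1 by DESeq2 (4.93%). Members leaned upward here too, with a median of 0.14 and 38 of 46 above 0, against a median of -0.008 over all genes. All mRNAs under 1.5 kb had a median of -0.02 and those over 5 kb 0.01, while the 24 members under 1.5 kb had a median of 0.21. With replicate number as a block the adjusted p of Psme1 was 0.0847, and 109 of 13487 genes were called. With an added term for long against short mRNAs, chosen after seeing the data, Psme1 had an adjusted p of 0.000463, and Psme2 was called too (0.42, adjusted p 0.0288, against 0.39 ± 0.18 and 0.312 without the term), among 706 genes in all. Psme2 itself held 18.4, 20.1, 22.7, 24.5 and 29.5 CPM in control and 22.3, 26.4 and 41.2 CPM (lowest, median, highest) in HD libraries, which overlapped.

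Of 8 interferon and antigen presentation genes tested in these IPs, 5 lay above 0, and edgeR called 1 and DESeq2 2. Both called the peptide transporter Tap2 higher, at 1.06 ± 0.15 (edgeR adjusted p 0.00247), named after its values were seen. Tap2 held 9.42 to 11.3 CPM in control and 17.0 to 27.8 CPM in HD libraries. DESeq2 also called H2-K1 (adjusted p 0.035), which stood at 0.56 ± 0.16 by edgeR (adjusted p 0.095). Of 6 microglial markers tested, 5 lay above 0 (median 0.28), with 0 called by edgeR or DESeq2 and 0 at an unadjusted p under 0.05, and their summed levels overlapped, 7.30 to 12.8 CPM in control and 6.23 to 14.0 CPM in HD libraries. Endothelial markers lay above 0 in 4 of 4 (median 0.19), with the same counts of 0. Of 6 astrocyte markers 3 lay above 0 (median 0.05), of 6 oligodendrocyte markers 2 (-0.12) and of 9 neuron markers 2 (-0.19). edgeR and DESeq2 called 0 of these, with 0, 1 and 1 at an unadjusted p under 0.05. The part of these cells was not tested. Psmb8 was at most 0.76 CPM in any of these 11 libraries. The HD effect on Psme1 was not shown to differ between cell types. Against cerebellar Gad2 IPs the difference of effects was 0.84 ± 0.26 with an adjusted p of 0.355, and against cerebral vGlut2 IPs 0.83 ± 0.27 with 0.318, both by edgeR. The lowest member was Psma8 (-1.17 ± 0.94) in the first of these, and the extremes were Psmb11 (1.25 ± 0.94) and Psmb9 (-1.04 ± 1.08) in the other. The first test called 0 of 50 members (0.107% of 13971 genes), with 3 at an unadjusted p under 0.05 (7.01%) and 0 by DESeq2 (0.523%). Markers above 0 in it were 7 of 7 of microglia (median 0.58), 4 of 6 of astrocytes (0.10), 3 of 6 of oligodendrocytes (0.03) and 2 of 4 of endothelial cells (-0.004). edgeR and DESeq2 called 0 of these markers, and their part was not tested. The second called 0 of 48 (0.316% of 14253 genes), with 1 (7.22%) and 0 (0.884%). Its cerebellar and cerebral IPs came from the same mice (5 of 5 numbered pairs in each genotype), which that fit does not use.

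**Figure D3:**
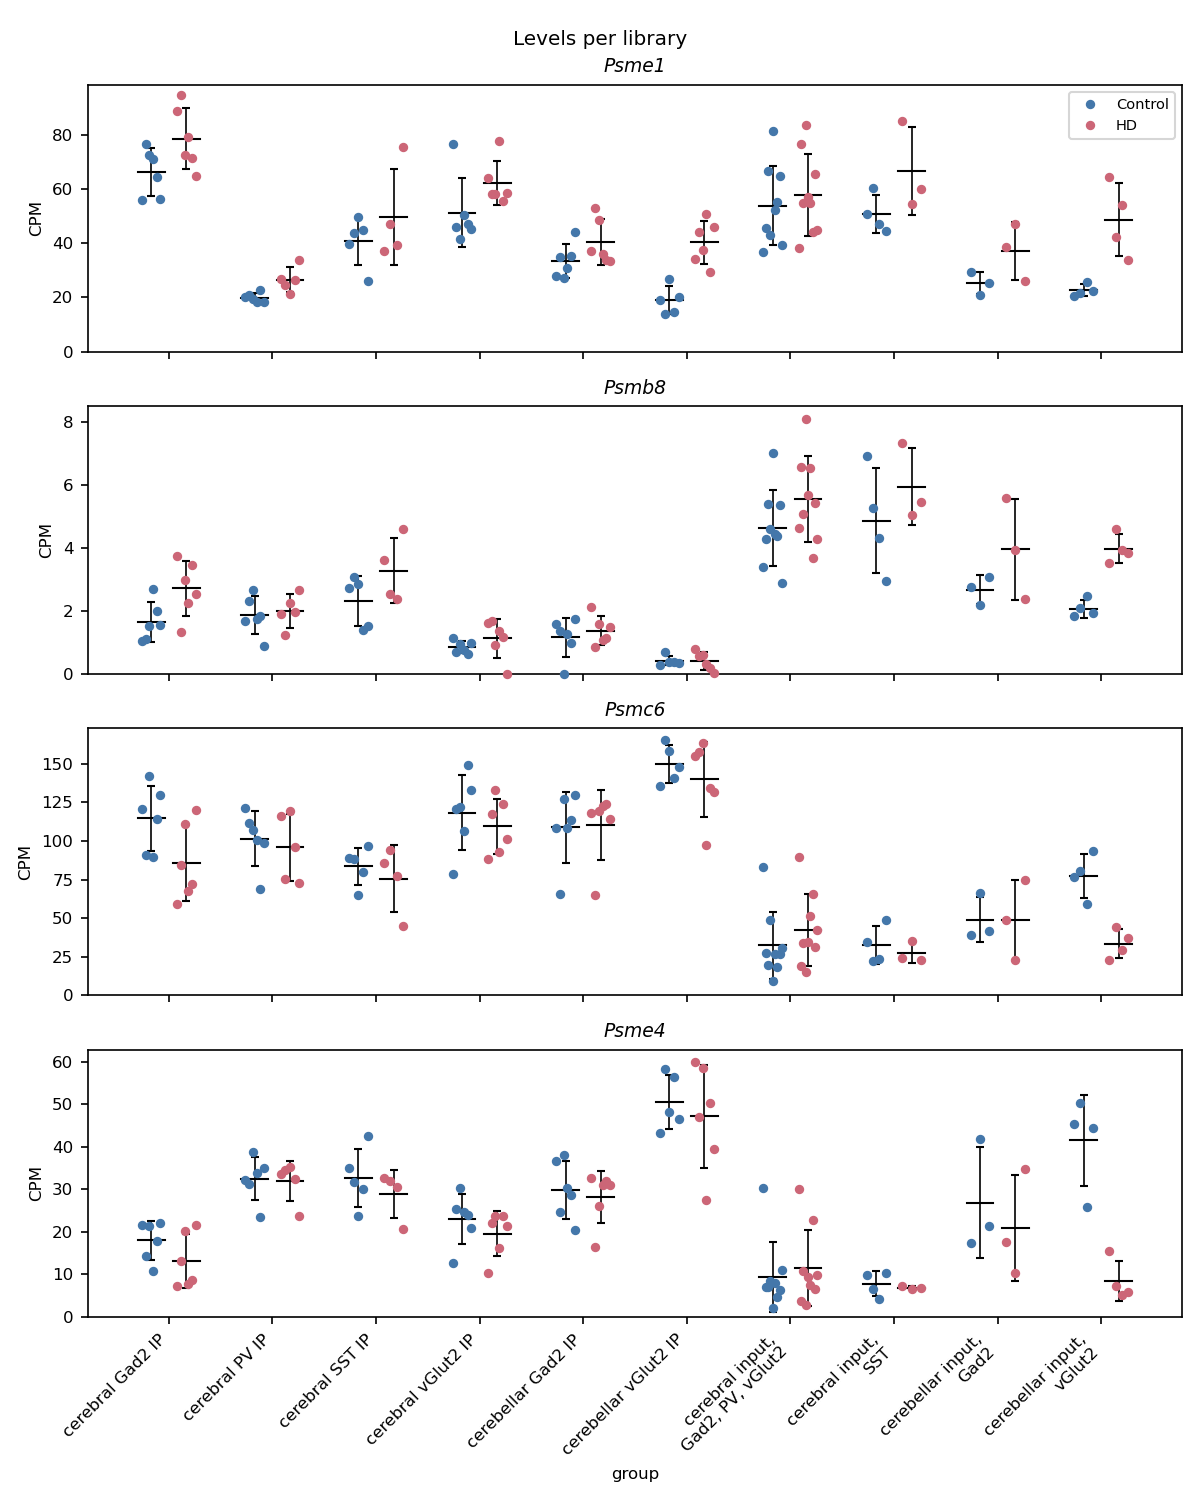
Each point is the level of a gene in 1 library in CPM, blue for control and red for HD, with the bar at the mean and error bars of 1 SD, for Psme1, Psmb8, Psmc6 and Psme4 in each IP and input group. Psme1 in cerebellar vGlut2 IPs lies between 14.1 and 26.8 CPM in control and between 29.4 and 50.8 CPM in HD libraries.

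Whole cerebral tissue showed little. In input of the Gad2, PV and vGlut2 lines, fitted with line as a term, edgeR called 0 of 50 members (0.215% of 14871 genes), with 1 at an unadjusted p under 0.05 (6.77%) and 0 by DESeq2 (0.800%). Psmb8 stood at 0.29 ± 0.13 and Psme1 overlapped between genotypes in each line. Adding the long against short mRNA term called Psmb8 (0.35, adjusted p 0.0301) and Psme2 (0.20, adjusted p 0.0491) among 460 of 14871 genes, against 32 without it. The median was 0.03, and the extremes were Psmc6 (0.46 ± 0.41) and Psmb11 (-0.16 ± 0.21). SST input had 0 of 50 called (0% of 14878 genes), 0 at an unadjusted p under 0.05 (2.56%) and 0 by DESeq2 (0.101%), with Psme2b (1.16 ± 0.67) and Psmb11 (-0.64 ± 0.42) as extremes. Its median of 0.08 became -0.08 with mice of 1 code series only, and -0.08 without HD SST Cerebrum input 1.

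In HD against control, cerebellar input held more calls of members than any IP or cerebral input. Over both lines, with line as a term, edgeR called 21 of 49 members higher and 1 lower, against 12.6% and 13.0% of 14477 genes, and the median member differed by 0.35. Beta subunits had 6 of 7 called with a median of 0.51, while alpha subunits had a median of 0.18. The inducible Psmb8 (0.78 ± 0.19, adjusted p 0.0268) and Psmb10 (0.64 ± 0.19, 0.0322) rose, as did Psme1 (0.87 ± 0.17, 0.0208) and the core subunit Psmb3 (0.68 ± 0.18, 0.0289). Psme4 fell (-1.47 ± 0.42, 0.0311). Psmb5, which cuts after hydrophobic residues, stood at 0.53 ± 0.20 with an adjusted p of 0.0568.

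These calls rest on few libraries. DESeq2 called 24 members higher and 2 lower (4977 of 14477 genes called), and scaling by library size only 12 and 1 (3027 genes). With replicate number as a block 0 members and 9 genes were called. Without 1 library the count of genes called by edgeR moved as that of members did. It was 28 members and 5176 genes without Control Gad2 1, 2 and 415 without Control Gad2 2, and 26 and 5326 without Control Gad2 3. Members were 0, 0, 1 and 1 without Control vGlut2 1, 2, 3 and 4, with 108, 106, 128 and 165 genes. They were 18, 0 and 31 without HD Gad2 1, 2 and 3, with 2648, 118 and 7456 genes, and 11, 1, 0 and 1 without HD vGlut2 1, 2, 3 and 4, with 1484, 125, 128 and 92 genes. The median stayed between 0.315 and 0.398 over these. Over all 14 libraries the median was 0.35.

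Each line was also fitted alone. The test of the difference between lines, given below, called 0 of 49 members by edgeR and 3 by DESeq2. In the Gad2 line alone edgeR called 0 of 48 members (0% of 14226 genes), with 0 at an unadjusted p under 0.05 (2.21%) and 0 by DESeq2 (0.119%), and the median was 0.14. In the vGlut2 line alone 27 of 49 members were higher and 5 lower, against 24.4% and 27.3% of 14630 genes, with a median of 0.46. Psme4 held 25.9, 44.4, 45.4 and 50.3 CPM in control and 5.11, 5.96, 7.34 and 15.5 CPM in HD input of that line. Every HD library lay under every control library, and the log2 fold change was -2.30 ± 0.36 (edgeR adjusted p 0.000747). In the Gad2 line Psme4 overlapped, with 17.5, 21.3 and 41.9 CPM in control and 10.3, 17.6 and 34.7 CPM in HD input. Psmc6 held 59.2, 76.7, 80.4 and 93.4 CPM in control and 22.7, 29.3, 37.3 and 44.1 CPM in HD vGlut2 input, with no overlap and a log2 fold change of -1.24 ± 0.21.

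Cutting subunits went up in the vGlut2 line. Psmb6 held 107, 115, 123 and 135 CPM in control and 195, 211, 212 and 251 CPM in HD input (0.84 ± 0.12, edgeR adjusted p 0.000454). Psmb5 held 58.2, 66.9, 70.6 and 99.2 CPM against 110, 126, 131 and 153 (0.80 ± 0.17). Psme1 held 20.6, 21.8, 22.6 and 25.8 CPM against 34.0, 42.4, 54.0 and 64.5 (1.09 ± 0.20). None of the 3 overlapped between genotypes, in a line where 51.7% of 14630 genes were called, and all members together took 0.328 to 0.422% of protein-coding counts in control and 0.453 to 0.539% in HD input. Psmb8 held 1.81, 1.91, 2.07 and 2.46 CPM against 3.51, 3.82, 3.94 and 4.58. Microglial markers moved alongside, with summed levels of 86.1, 96.4, 97.1 and 98.6 CPM in control and 140, 140, 150 and 150 CPM in HD input, Csf1r the most abundant and none at 0. In that line 3 of 7 microglial and 5 of 8 interferon and antigen presentation genes rose. Markers of other cells moved both ways, with 2 of 6 astrocyte markers higher and 1 lower, 3 of 6 oligodendrocyte markers higher and 2 lower, 1 of 4 endothelial markers higher and 1 lower, and 3 of 9 neuron markers higher and 4 lower. The lower ones were Gabra6 (-0.92 ± 0.21), Gad2 (-1.53 ± 0.16), Slc17a6 (-1.98 ± 0.74) and Gad1 (-0.43 ± 0.14). The higher ones were Slc17a7 (0.98 ± 0.14), Pvalb (0.49 ± 0.14) and Slc32a1 (0.45 ± 0.11). Over both lines 3 microglial markers rose, 1 astrocyte marker fell, and 1 oligodendrocyte marker rose and 2 fell. The part of these cells was not tested.

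mRNA length moved with these differences. Over all genes in the vGlut2 line the median log2 difference was 0.37 for mRNAs under 1.5 kb, 0.16 from 1.5 to 3 kb, -0.14 from 3 to 5 kb and -0.66 over 5 kb. In the Gad2 line it was 0.08, 0.04, -0.01 and -0.09. Most members are short, 26 under 1.5 kb and 20 from 1.5 to 3 kb of those tested in the vGlut2 line, with medians of 0.53 and 0.49, and Psme4 is the 1 member over 5 kb. A library's score of long minus short mRNAs ran from 0.26 to 0.59 in control and from -0.83 to -0.29 in HD vGlut2 input, with no overlap. With that score as a term, chosen after seeing the data, 0 members and 88 of 14477 genes were called by edgeR over both lines and the median was 0.09, whereas 22 members and 3704 genes were called without it. Score and genotype cannot be told apart within the vGlut2 line. The difference of HD effects between the lines, also added after seeing the data, called 0 of 49 members by edgeR (1.72% of 14477 genes), with 16 at an unadjusted p under 0.05 (29.5%) and 3 by DESeq2 (12.7%). Psme4 had the lowest difference, -1.93 ± 0.64 with an adjusted p of 0.0857, and Psme2b the highest (1.06 ± 0.82). Without Control Gad2 Cerebellum input 2 that count was 8 (2447 genes), without HD Gad2 2 it was 13 (3054 genes) and without HD vGlut2 1 it was 2 (600 genes).

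**Figure D4:**
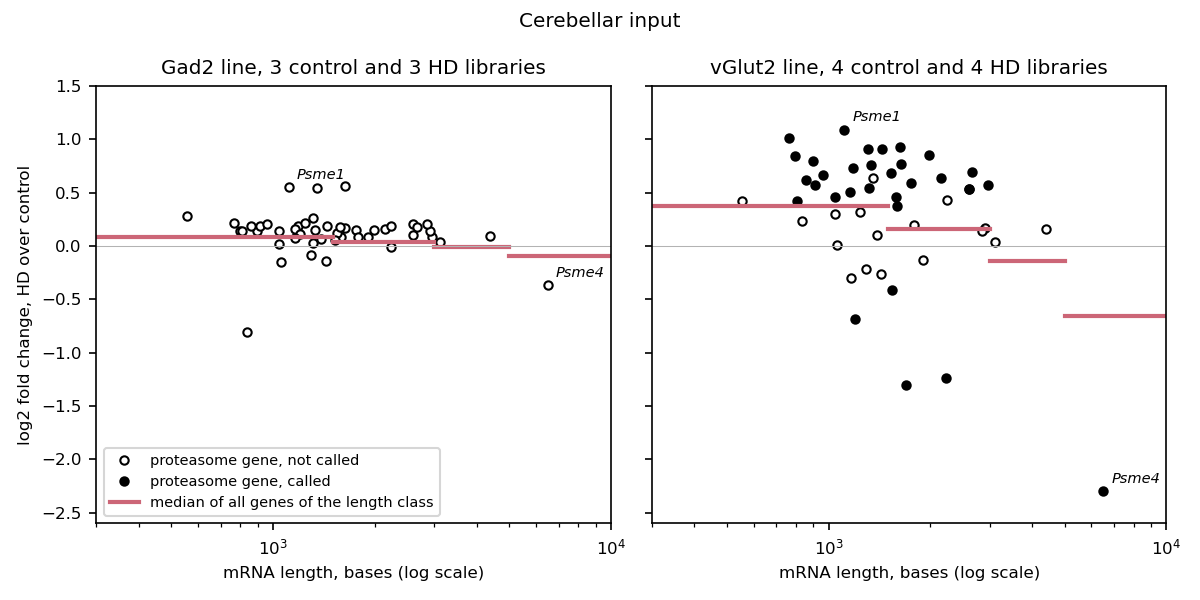
Each circle is a proteasome gene in cerebellar input, by mRNA length in bases on a log scale and log2 fold change of HD over control, filled where edgeR called it, with red lines at the median of all genes of a length class. The red lines run from 0.37 to -0.66 in the vGlut2 line and from 0.08 to -0.09 in the Gad2 line.

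Genes that work with the proteasome but lie outside the symbol rule, 31 in all, were compared in the same way. For HD against control in the IPs and cerebral input, edgeR called 0 of 31, with 1, 0, 0, 1, 1 and 8 at an unadjusted p under 0.05 in cerebral Gad2, PV, SST and vGlut2 and cerebellar Gad2 and vGlut2 IPs (9.20%, 4.21%, 1.47%, 7.61%, 2.41% and 15.4% of genes), and 0 and 1 in the cerebral inputs (6.77% and 2.56%). DESeq2 called 2 of them in cerebellar vGlut2 IPs (4.93% of genes) and 0 in the others. In cerebellar input 9 rose and 2 fell (12.6% and 13.0% of genes), with the ubiquitin genes Rps27a (0.62 ± 0.22) and Ubb (0.60 ± 0.19) higher and Ecpas (-1.05 ± 0.31), a proteasome adaptor, and the deubiquitinase Uchl5 (-0.62 ± 0.21) lower. These 4 calls ended with replicate number as a block (adjusted p from 0.118 to 0.126) and with the score of long minus short mRNAs (0.503 to 0.737), and the values were 0.21, 0.17, -0.28 and -0.10 in the Gad2 line alone. Those of Rps27a and Ubb also ended with library size alone as scaling (0.0646 and 0.0598). All 4 ended without Control Gad2 2, HD Gad2 2, any 1 of Control vGlut2 1 to 4 or any 1 of HD vGlut2 2 to 4. Those of Rps27a and Uchl5 ended without HD Gad2 1, and those of Ubb, Ecpas and Uchl5 without HD vGlut2 1. In control IPs against input, cerebral Gad2 called 16 higher and 10 lower of 31 (29.6% and 32.5% of genes), PV 12 and 9 (33.5% and 35.6%), SST 12 and 10 (31.3% and 30.3%), and vGlut2 14 and 9 (30.2% and 33.0%). The cerebellar IPs called 12 and 5 for Gad2 (24.8% and 31.8% of genes) and 15 and 3 for vGlut2 (27.0% and 30.6%).

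Members lie on 16 chromosomes. Some lie close together, as Psme1 (chr14:55578123-55581529, + strand) and Psme2 (chr14:55587441-55591113, - strand), and Psmb8 (chr17:34197721-34201454, + strand) and Psmb9 (chr17:34181987-34187764, - strand), all on build GRCm38. In all, 13 members overlap another protein-coding gene, 10 of them on the opposite strand, and counts there depend on how strand was used in counting.

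Promoters of 42 members were found in the RefSeq table (build GRCm38.p6), as 300 bases from 250 before the start to 50 after. The absent ones are Psma8, Psmb1, Psmb2, Psmb7, Psmc3, Psmd3, Psmd7 and Psmg2. The letters TGACNNNGC, searched on both strands, were in 6 of 42 (14.29%, Wilson 95% interval 6.72 to 27.84%) and in 15.02% of 16513 genes with a promoter. CCAAT was in 15 of 42 (35.71%) and in 42.07% of genes. Neither share of members was higher than that of all genes. The match is shown for 5 of these 6 members so that the letters around it can be compared, and that of Psme4, which spans the start, is not shown. The sequences are from RefSeq, with the motif in capitals, at chr14:54618014-54618062 (- strand), chr11:70525328-70525356 (+ strand), chr14:45329577-45329625 (+ strand, motif on the reverse strand), chr5:123228139-123228187 (+ strand) and chr11:107479278-107479309 (+ strand, motif on the reverse strand).
Psmb5: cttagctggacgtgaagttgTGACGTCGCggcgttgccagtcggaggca
Psmb6: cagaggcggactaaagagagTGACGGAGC
Psmc6: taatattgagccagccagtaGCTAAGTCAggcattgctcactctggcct
Psmd9: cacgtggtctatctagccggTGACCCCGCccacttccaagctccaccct
Psmd12: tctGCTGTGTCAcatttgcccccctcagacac
A match is a description of letters in these windows and was tied to no factor.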

How the data were processed

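The authors aligned and quantified paired reads of stranded mRNA libraries with STAR and Salmon (build GRCm38.p6), and the deposited table holds an estimated count per gene and library. How strand was set in that counting, and its annotation release, are not stated. Genes were named from GENCODE M21 (55141 of 55401 IDs matched), spike-ins were left out, and library size was the sum over protein-coding genes. Counts were rounded and tested with edgeR 4.0.16 quasi-likelihood fits in R 4.3.3 with TMM scaling, on genes whose mean count in the compared libraries exceeded 10. P-values were Benjamini-Hochberg adjusted over all genes tested, and a gene was called at 0.05 or less. Errors (SE) were derived from each fold change and its F statistic. DESeq2 1.42.0 was the main alternative. Figures and summaries used Python 3.11.15, numpy 2.4.6, pandas 2.3.3, scipy 1.17.1 and matplotlib 3.10.9. The fits were tested on simulated data, and the outcome is not reported here. Members and lists were chosen with earlier results of these data known. Named genes are the cutting subunits and their inducible counterparts, Psme1 to Psme4, members under the count filter, and in each comparison up to 5 called members with the largest change and the highest and lowest member, and other pathway genes are named for cerebellar input only, except an item that is not reported here. IPs and input, and the 2 regions of a line, share mice, and mouse as a block was an alternative. Control and HD libraries of 1 number come from different mice. Correlations of the 48 such pairs ran from -0.837 to 0.954, with 17 best matched to their own number (3 of 3 in Gad2 cerebral input, from 0.523 to 0.954), so replicate number as a block is an alternative only.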

Additional observations from a re-analysis of the deposited data

Results flagged for a closer look

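In 195 sets of values (13 quantities in 15 groups of 4 to 6 libraries), 18 had a highest or lowest library far from the others of its group by Dixon's test. Chance flags about 1 in 20 such sets. None of 147 pairs of a member and a difference of HD effects between groups passed its edgeR test. At an unadjusted p under 0.05 there were 3 and 1 in the IP tests and 16 in cerebellar input, and DESeq2 called 0, 0 and 3.

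HD Gad2 Cerebellum IP 4 was high in Psmb5 (225.0 CPM, others 106 to 145), in Psmb6 (247.0 CPM, others 169 to 182) and in the members' share of protein-coding counts (0.602%). HD vGlut2 Cerebrum IP 4 was high in Psmb5 (206.0 CPM, others 134 to 157). HD PV Cerebrum IP 3 was low in Psmb7 (127.0 CPM, others 213 to 240). Control vGlut2 Cerebellum IP 2 was high in Psmb8 (0.676 CPM).

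Control vGlut2 Cerebrum IP 1 was high in Psmb10 (72.8 CPM, others 41.4 to 52.0), Psme1 (76.4 CPM, others 41.5 to 50.4) and Psme2 (46.9 CPM, others 23.9 to 29.4). HD SST Cerebrum IP 4 was high in Psmb9 (1.52 CPM) and Psme2 (37.5 CPM, others 17.5 to 20.3) and low in the score of long minus short mRNAs (-0.172, others 0.792 to 0.932). HD vGlut2 Cerebrum IP re1 was high in Psmb9 (2.89 CPM, others 0.398 to 0.62).

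Psme2 was also high in Control Gad2 Cerebellum IP 2 (37.3 CPM) and Control vGlut2 Cerebellum input 3 (29.6 CPM). Psme3 was high in HD vGlut2 Cerebrum IP 1 (159.0 CPM), Psme4 low in HD PV Cerebrum IP 2 (23.8 CPM), and the inducible share of cutting-subunit transcripts high in HD Gad2 Cerebrum IP 1 (7.18%).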

How the results depend on the processing

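Of the counts and medians for the comparisons, 335 values under other settings stayed within 1.5 times the count or 1 SD of the median (0.1502 on the log2 scale), and 19 did not. The cause was not tested in any of these. With replicate number as a block, members called were 0 in cerebellar vGlut2 IPs and 0 in cerebellar input for HD against control, and 2 for PV against SST. The long minus short mRNA score as a term, chosen after seeing the data, gave 2 members in cerebellar vGlut2 IPs, 2 in cerebral input, and 0 in cerebellar input with a median of 0.092. Library size alone as scaling gave 13 in cerebellar input and 7 for vGlut2 against Gad2 in the cerebrum, where DESeq2 gave 6. The Gad2 line alone gave 0 in cerebellar input with a median of 0.143. Mice of the BR code series alone gave a median of -0.083 in SST input. Input of the same line alone gave 16 for cerebral Gad2, 18 for SST and 23 for cerebellar Gad2 IPs. Only the groups compared gave 9 for vGlut2 against Gad2 in the cerebellum, and 9 with the block added. The difference of HD effects between cerebellar input lines, added after seeing the data, gave 3 by DESeq2.

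Leaving out 1 library at a time kept 514 of these values and moved 24. Ranges were 0 to 31 members called in cerebellar input, 1 to 9 for vGlut2 against Gad2 in the cerebrum with a median of -0.18 to 0.042, 0 to 13 for the cerebellar input lines, and medians of -0.136 to 0.076 for cerebellar against cerebral vGlut2 IPs and -0.082 to 0.194 in SST input. Of values for single genes, 2431 kept their side of the threshold under other settings, 41 gained a call, 100 lost it and 24 moved, all inducible shares with exon-union lengths. With libraries left out 3488 kept theirs, 29 gained a call and 183 lost it. Psme4 in cerebellar Gad2 IPs against input turned from -0.30 to 0.614 (adjusted p 0.0356, a call) with only mice that gave both libraries and mouse as a block. Depth limits the members with low counts, such as Psma8, Psmb11, Psme2b and Psmb9, which were not tested in some comparisons.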
